A study of Homo sapiens with 14 samples.

Results

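Integrins are receptors for the extracellular matrix, and the genes described here are the 10 subunits ITGA2, ITGA3, ITGA5, ITGA6, ITGAV, ITGB1, ITGB4, ITGB5, ITGB6 and ITGB7. With earlier results of these data known, they were picked by gene symbol from the 36601 genes that the single-cell tables list. All 10 were also listed in the bulk tables. Their values were followed in SW620, a human colorectal cancer line grown from a lymph node metastasis, during long-term culture without passage. The control line, labelled SW620, carried an empty FLAG vector according to the study. The other line, SW620-TET2CD, overexpressed the catalytic domain of TET2, an enzyme that oxidises methylated cytosine in DNA. Each line gave 1 single-cell library on each of days 6, 9, 12 and 15, so that 8 single-cell libraries stood without a replicate of any line and day. A further 6 bulk RNA libraries held SW480 on day 6, SW620 on day 6, and cells from inside and from outside the colonies of SW620 and of SW620-TET2CD on day 15. SW480 is the line grown from the primary tumor of the same patient. The colonies had been parted from the cells around them by accutase and a strainer.

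Each integrin receptor is a pair of 1 alpha and 1 beta subunit, and the pair sets the ligand. The β1 subunit joins α2 into a collagen receptor, α3 or α6 into laminin receptors, and α5 into the classical fibronectin receptor. The β4 subunit pairs with α6 alone and anchors epithelial cells to laminin through hemidesmosomes, which tie the receptor to keratin filaments. The αV subunit pairs with β1, with β5 (a vitronectin receptor) or with β6 (an epithelial receptor of fibronectin and of latent TGFβ). The β7 subunit is best known from leukocytes, where it pairs with α4 or with αE, the receptor for E-cadherin.

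ITGA5, ITGB6 and ITGB7 had the 3 largest fitted rises late in culture, and the stretch upstream of each is shown for that reason. ITGB7 led the next subunits by a narrow margin, at a log2 fold change of 2.06 against 2.00 for both ITGB4 and ITGA3. Without SW620 day 15 it was at 1.57, below ITGA3 at 1.71 and ITGB4 at 1.64, and in SW620-TET2CD alone the 3 values were 1.49, 1.84 and 1.70. The RefSeq promoter table (GRCh38.p14) held entries for 8 of the 10 subunits. Each line gives bases 250 to 51 before the start site on the gene's own strand, 5′ to 3′. Capitals mark matches, on either strand, to ACGTG or GCGTG (the core of hypoxia response elements), TGANTCA (the AP-1 site) or GGGCGG (the GC box).
ITGA5 (chr12:54419317-54419516, minus strand): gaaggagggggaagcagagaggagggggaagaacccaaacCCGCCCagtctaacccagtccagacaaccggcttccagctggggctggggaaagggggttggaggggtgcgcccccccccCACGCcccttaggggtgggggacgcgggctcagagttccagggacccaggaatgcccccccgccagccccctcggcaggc
ITGB6 (chr2:160200323-160200522, minus strand): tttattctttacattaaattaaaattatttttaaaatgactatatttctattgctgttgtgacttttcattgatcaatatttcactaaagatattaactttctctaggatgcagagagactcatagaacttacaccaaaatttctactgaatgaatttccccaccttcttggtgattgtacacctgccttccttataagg
ITGB7 (chr12:53207302-53207501, minus strand): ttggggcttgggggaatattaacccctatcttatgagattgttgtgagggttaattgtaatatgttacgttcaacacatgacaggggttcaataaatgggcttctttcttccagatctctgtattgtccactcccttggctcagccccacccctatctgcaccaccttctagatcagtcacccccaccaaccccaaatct
The ITGA5 window held 1 GCGTG and 1 GGGCGG, both as the reverse complement and not overlapping, and 70.5% of its bases were G or C. The ITGB6 and ITGB7 windows held none of the 4 motifs, with 29.5% and 46.5% G or C against a median of 57.5% over all windows. Over the 35116 windows of the same length in the table, ACGTG was found in 14.4%, GCGTG in 26.3%, TGANTCA in 5.27% and GGGCGG in 35.0%.

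The single-cell libraries were deposited as counts of unique molecular identifiers (UMIs), and 48282 of 67056 barcodes passed the study's limits on genes, UMIs and mitochondrial share. The study's own set of cells was smaller, so that the cells kept here are not exactly that set. Between 3894 and 8154 cells and 48186195 and 74185723 UMIs were left per library, and pairs of libraries shared 11 to 31 barcodes. TET2 stood at 40.2 to 106.6 CPM (counts per 1000000 UMIs) in the SW620-TET2CD libraries and at 2.11 to 3.90 CPM in SW620. Of 9 colorectal epithelial markers 7 reached 1 CPM, with a sum of 9414 to 14040 CPM, while the sums of 6 fibroblast, 7 leukocyte and 5 endothelial markers stayed at or below 28.5, 31.9 and 1.39 CPM. KDR, an endothelial marker, was at 0 in these libraries. The summed leukocyte markers were 5.66 to 16.3 CPM on days 6 and 9 and 13.9 to 31.9 CPM on days 12 and 15, with LYZ the 1 gene of that list at 1 CPM or more. The summed fibroblast markers went the other way without overlap, from 16.4 to 28.5 CPM on days 6 and 9 to between 8.11 and 12.6 CPM on days 12 and 15. The part of these shifts in the results was not tested.

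On GRCh38 the GENCODE annotation places ITGA5 (12: 54395261 to 54419266) and ITGB7 (12: 53191323 to 53207282) on chromosome 12, ITGB6 (2: 160099667 to 160200313), ITGA6 and ITGAV on chromosome 2, and ITGB4 (17: 75721328 to 75757818) and ITGA3 on chromosome 17. ITGA2, ITGB1 and ITGB5 lie on chromosomes 5, 10 and 3.

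To ask how the receptors changed with time in culture, days 12 and 15 (late) were set against days 6 and 9 (early) over both lines. All 10 subunits rose, by a median of 1.62 on the log2 scale, against a median of 0.04 over the 16526 genes tested. In edgeR's quasi-likelihood test the p adjusted after Benjamini and Hochberg was under 0.05 for each of them, and 29.4% of all genes tested rose past the same threshold. With upper-quartile factors in place of TMM the median over all genes moved to 0.21 and 63.2% of the genes called were higher, against 50.7% with TMM, and all 10 subunits still passed. Each subunit reached its highest level on day 15 in both lines, and 57 of the 60 steps from 1 day to the next were rises. For all 10 subunits every late library lay above every early one in CPM, which was so for 29.9% of the genes tested. Since the subunits were chosen with earlier results known, the shares over all genes are no independent check on these counts. The CPM levels were not scaled by TMM factors, which ran from 0.925 to 1.17 when taken over all genes. The fits took theirs after the filter on low counts.

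**Figure D1:**
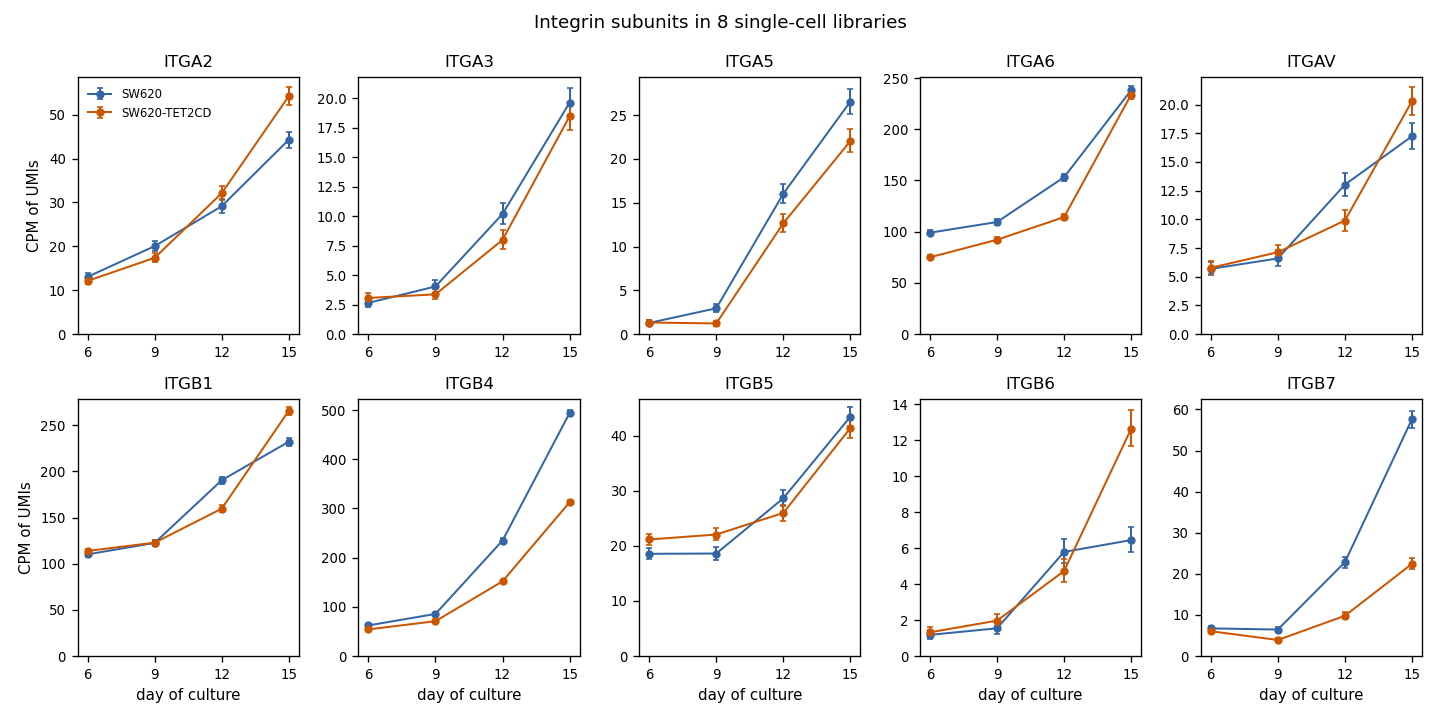
Levels of the 10 integrin subunits (CPM of UMIs, linear axes from 0) on days 6, 9, 12 and 15 in SW620 (blue) and SW620-TET2CD (orange), 1 library per point, with bars for the 95% Poisson interval of the count. The curves climb to day 15 in each panel, ITGA5 starts near 1 CPM, and on day 15 ITGB4 and ITGB7 lie lower and ITGB6 lies higher in SW620-TET2CD.

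ITGA5, the fibronectin-binding α5 chain, rose the most. It stood at 1.29, 2.96, 16.0 and 26.6 CPM in SW620 on days 6, 9, 12 and 15, while SW620-TET2CD held 1.33, 1.23, 12.7 and 22.1 CPM. The largest step fell between days 9 and 12 in both lines, 5.42-fold in SW620 and 10.3-fold in SW620-TET2CD. The log2 fold change of late over early was 3.45 ± 0.30 (SE; adjusted p = 1.76e-05). ITGA3, the laminin-binding α3 chain, was at 2.66, 4.04, 10.2 and 19.6 CPM in SW620 and 3.07, 3.38, 7.99 and 18.5 CPM in SW620-TET2CD. Its late libraries were all above its early ones, and its log2 fold change was 2.00 ± 0.29 (adjusted p = 0.000269). The collagen-binding ITGA2 climbed step by step, from 13.1 CPM through 20.1 and 29.2 to 44.3 CPM in SW620 and from 12.1 CPM through 17.4 and 32.1 to 54.2 CPM in SW620-TET2CD. Its log2 fold change was 1.25 ± 0.22 (adjusted p = 0.000896).

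The chain of the hemidesmosome, ITGB4, was at 62.4, 85.6, 234.9 and 494.0 CPM in SW620 while SW620-TET2CD held 54.2, 70.9, 151.9 and 312.7 CPM. It thus rose 7.92-fold from day 6 to day 15 in SW620 and 5.77-fold in SW620-TET2CD, and late over early it gave a log2 fold change of 2.00 ± 0.29 (adjusted p = 0.000273). Its only alpha partner, ITGA6, went from 99.0 CPM through 109.5 and 153.2 to 238.1 CPM in SW620 and from 75.1 CPM through 92.2 and 114.3 to 233.8 CPM in SW620-TET2CD. The lowest late and the highest early ITGA6 library lay close together, at 114.3 and 109.5 CPM. Scaled by their TMM factors over all genes, 1.07 for SW620-TET2CD day 12 and 0.925 for SW620 day 9, they change order. The log2 fold change of ITGA6 was 0.88 ± 0.22 (adjusted p = 0.00537).

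The shared β1 chain, ITGB1, was at 110.2, 122.7, 190.5 and 232.2 CPM in SW620 and at 113.9, 122.9, 159.7 and 265.8 CPM in SW620-TET2CD. Its log2 fold change of 0.75 ± 0.16 (adjusted p = 0.00226) was among the smallest of the 10, with ITGB5 below it. ITGB5 was nearly level on days 6 and 9 (18.6 and 18.6 CPM in SW620, 21.2 and 22.1 CPM in SW620-TET2CD), and then reached 43.5 and 41.4 CPM on day 15. Late over early its log2 fold change was 0.70 ± 0.19 (adjusted p = 0.00915). ITGAV, the alpha partner of β5 and β6, spanned 5.69 to 7.14 CPM in the early and 9.90 to 20.3 CPM in the late libraries (log2 fold change 1.16 ± 0.21, adjusted p = 0.00091).

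ITGB6 was a rare transcript on the early days, with 84 to 143 UMIs per library. Its levels were 1.18, 1.54, 5.79 and 6.45 CPM in SW620 and 1.32, 1.97, 4.73 and 12.6 CPM in SW620-TET2CD. From day 12 to day 15 its level changed 1.11-fold in SW620 and 2.67-fold in SW620-TET2CD, and the log2 fold change over both lines was 2.18 ± 0.28 (adjusted p = 0.00012). ITGB7 was at 6.73, 6.45, 22.8 and 57.6 CPM in SW620 and at 6.04, 3.91, 9.80 and 22.4 CPM in SW620-TET2CD. It dipped from day 6 to day 9 in both lines before it rose, with a log2 fold change of 2.06 ± 0.38 (adjusted p = 0.000994).

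With each line fitted alone, on 2 late against 2 early libraries, all 10 subunits passed in SW620, where 2927 of the 16545 genes tested rose. In SW620-TET2CD 7 passed, where 2347 of the 17229 genes tested rose. There ITGA6, ITGB1 and ITGB5 missed the threshold with adjusted p = 0.0521, 0.0737 and 0.156. Their log2 fold changes were 0.86, 0.66 and 0.45, next to 0.88, 0.75 and 0.70 over both lines. The difference of the late-early change between the lines was not past the threshold for any subunit in edgeR (0 of 10, against 0% of all genes), nor in DESeq2. In edgeR 0 of 10 had an unadjusted p under 0.05 for this difference, against 130 of the 16526 genes tested. The widest such difference was that of ITGB7, whose rise was smaller in SW620-TET2CD by a log2 value of -1.08 ± 0.67. It was -0.16 without SW620 day 15 and -1.73 without SW620-TET2CD day 15. With 2 libraries per line and period, a missed threshold does not show that the lines changed alike.

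The share of cells with a UMI, taken after each cell was thinned to 2000 UMIs, was also higher on day 15 than on day 6. ITGB4 was seen in 11.6% of SW620 cells on day 6 (95% Clopper-Pearson interval 10.8 to 12.5) and in 54.2% on day 15 (53.0 to 55.4), and in SW620-TET2CD in 10.6% (9.96 to 11.3) and 41.4% (40.1 to 42.7). Before thinning these shares were 51.9%, 84.6%, 36.1% and 77.4%. ITGA5 was seen in 0.344% of SW620 cells on day 6 (0.207 to 0.536) and in 5.61% on day 15 (5.08 to 6.19), which before thinning were 1.57% and 16.2%. The cultures held 1 cell line each, so that no cell type without integrins could serve as a background, and the intervals cover counting error only. Shallower cells left out by thinning numbered 18 (day 6) and 89 (day 15) for SW620, while SW620-TET2CD lost 31 and 48.

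Cells with mitotic transcripts became rarer over the same days. Thinned cells with at least 2 UMIs from 12 mitotic genes made up 54.3% to 65.9% of the early libraries and 5.60% to 13.2% of the late ones. The 12 genes were MKI67, TOP2A, CCNB1, CDC20, PLK1, AURKA, AURKB, CENPF, HMMR, TPX2, UBE2C and CCNA2. Within the same libraries, these cells, called mitotic here, were therefore set against cells with no mitotic UMI. The name follows the gene list alone and does not mean that each of these cells was in mitosis. Of the 10 subunits 6 were lower in mitotic cells, against 19.2% of the 11789 genes tested, and none was higher past the threshold. ITGB1 was called higher with at least 3 mitotic UMIs (log2 fold change 0.17, adjusted p = 0.0365) and without SW620-TET2CD day 12 (0.16, adjusted p = 0.0235).

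**Figure D2:**
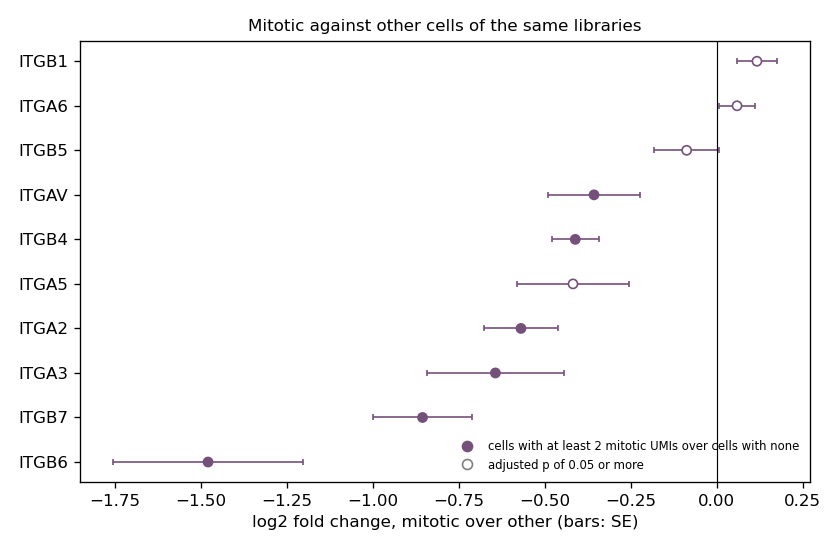
Log2 fold change of each integrin subunit in cells with at least 2 mitotic UMIs over cells with none, paired within the 8 libraries, with bars for the SE. Filled points have an adjusted p under 0.05 and open points do not. ITGB6 lies farthest to the left and ITGB1 farthest to the right.

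ITGB6 had the largest fitted difference, with 0.45 to 4.57 CPM in mitotic and 2.02 to 14.4 CPM in other cells, and it was lower in mitotic cells in 8 of 8 libraries. Its log2 fold change was -1.48 ± 0.28 (adjusted p = 0.000491). These values rest on few counts after thinning, 3 to 11 UMIs of ITGB6 in the mitotic cells of each early library and 2 or 3 in those of each late one, against 6 to 136 UMIs in the other cells. With at least 1 mitotic UMI as the limit the difference was -0.80, and with cells thinned to 1000 UMIs ITGB6 did not pass the filter on low counts and was not tested. ITGB7 and ITGB4 were also lower in 8 of 8 libraries, with log2 fold changes of -0.86 ± 0.14 (adjusted p = 0.00019) and -0.41 ± 0.07 (adjusted p = 0.000189). In SW620 day 6 the ITGB7 levels were close, 7.39 CPM in mitotic and 7.62 CPM in other cells, on 49 and 18 UMIs. The mitotic cells of SW620 day 12 held 3 UMIs of ITGB7. With at least 1 mitotic UMI as the limit ITGB7 was at -0.56. ITGA3 was at -0.64 ± 0.20, ITGA2 at -0.57 ± 0.11 and ITGAV at -0.36 ± 0.13. The value of ITGA3 rests on 0 to 33 UMIs of ITGA3 in the mitotic cells of each library. ITGAV rested on a thin margin (adjusted p = 0.0449). Its call was lost in DESeq2, with no filter on low counts and without any 1 of the 6 libraries of days 9, 12 and 15, and with cells thinned to 1000 UMIs its log2 fold change turned to 0.33 (adjusted p = 0.25). ITGA6 and ITGB1 were at 0.06 ± 0.05 and 0.12 ± 0.06 with adjusted p = 0.41 and 0.125, and ITGA5 at -0.42 ± 0.16 missed the threshold with adjusted p = 0.0566. ITGA5 was called lower with upper-quartile factors (-0.46, adjusted p = 0.0342), without SW620 day 12 (-0.47, adjusted p = 0.0432) and without SW620 day 15 (-0.54, adjusted p = 0.0375). ITGB5 was at -0.09 ± 0.09 (adjusted p = 0.514), and at -0.39 (adjusted p = 0.0255) with cells thinned to 1000 UMIs.

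Because mitotic cells made up less of the late libraries, the late-early comparison was repeated in cells with no mitotic UMI. All 10 subunits rose there too, against 21.9% of the 12005 genes tested, with a median log2 fold change of 1.48 against 0.04 over those genes. ITGA5 stood at 1.13 to 4.94 CPM in the early and 15.0 to 30.4 CPM in the late libraries (log2 fold change 3.14 ± 0.34, adjusted p = 1.02e-05). The early values rest on 4 to 19 UMIs of ITGA5 per library in these cells, and those of ITGB6 on 6 to 9. ITGB1 rose by 1.08 ± 0.17 and ITGA6 by 1.16 ± 0.21 in these cells, while ITGB6 rose by 1.64 ± 0.34 and ITGA2 by 0.93 ± 0.21, all on the log2 scale.

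**Figure D3:**
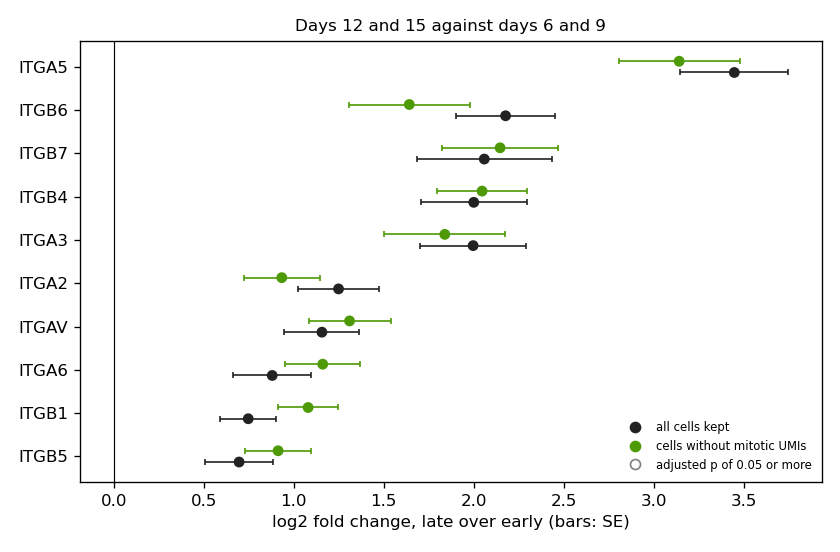
Log2 fold change of days 12 and 15 over days 6 and 9 for each integrin subunit in all cells kept (black) and in cells without mitotic UMIs (green), with bars for the SE. Each of the 20 points lies to the right of 0 with an adjusted p under 0.05, and ITGA5 lies above 3 in both.

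SW620-TET2CD was compared with SW620 over the matched days. ITGB7 and ITGB4 were lower in SW620-TET2CD, 2 of 10 subunits against 1.85% of all genes tested, and no subunit was higher past the threshold. ITGB7 was lower on 4 of 4 days, with log2 ratios of -0.16, -0.72, -1.22 and -1.36 on days 6, 9, 12 and 15 and a fitted difference of -0.995 ± 0.188 (adjusted p = 0.0111). ITGB4 was lower on 4 of 4 days as well, by log2 ratios of -0.20, -0.27, -0.63 and -0.66, and its fitted difference was -0.54 ± 0.13 (adjusted p = 0.0372). ITGA6 was lower on 4 of 4 days but just missed the threshold (-0.38 ± 0.10, adjusted p = 0.0522). The call of ITGB4 was lost without either day 9 library or either day 12 library, where its adjusted p was 0.102 to 0.119. Without the day as a block neither was called, at -1.32 for ITGB7 and -0.74 for ITGB4. Over all genes, 148 of 16873 were lower without SW620 day 9, and 4 of 16526 without the day as a block.

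**Figure D4:**
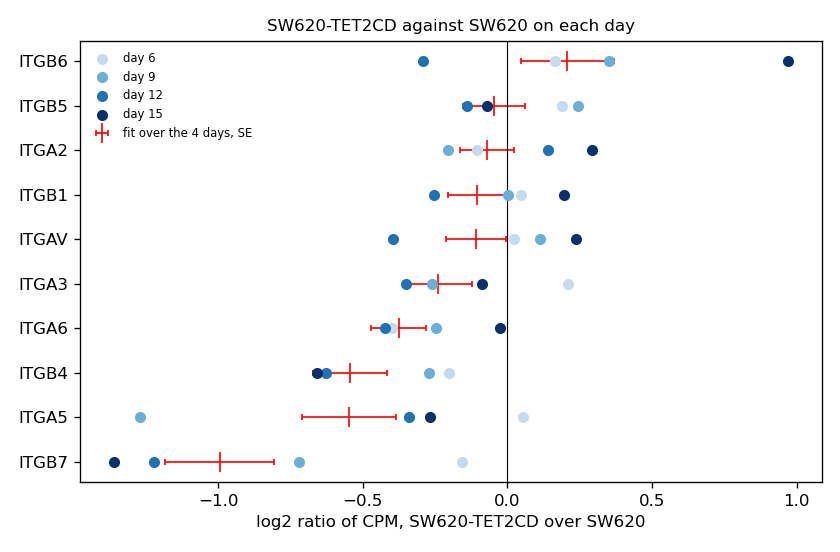
Log2 ratio of CPM, SW620-TET2CD over SW620, on days 6, 9, 12 and 15 (light to dark blue) for each integrin subunit, with the fitted difference over the 4 days and its SE in red. The ratios are not scaled by the TMM factors that the fit uses. The 4 days of ITGB7 and of ITGB4 lie to the left of 0, and ITGB6 on day 15 lies farthest to the right, at 0.97.

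The other subunits changed sides or stayed close to 0. ITGB6 was 0.97 higher in SW620-TET2CD on day 15 and 0.29 lower on day 12 on the log2 scale, which left a fitted difference of 0.21 ± 0.16 (adjusted p = 0.633). ITGA5 was at a log2 ratio of -1.27 on day 9, on 89 and 161 UMIs, and at a fitted -0.55 ± 0.16 (adjusted p = 0.102). Without either day 9 library the fitted value of ITGA5 was -0.34. Without either day 6 library it was -0.68 and was called (adjusted p = 0.0488 and 0.0480). ITGA2, ITGAV, ITGB1 and ITGB5 had fitted differences between -0.11 and -0.05. The fits used TMM factors, whereas the daily ratios did not. Taken over all genes, these factors were 1.17 for SW620-TET2CD and 0.951 for SW620 on day 15. In CPM, ITGAV and ITGB1 were each lower in SW620-TET2CD on 1 of 4 days.

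In the bulk libraries, where TPM (transcripts per 1000000) are scaled by length, levels of different subunits can be set side by side. On day 6 SW620 held 140.1 TPM of ITGB1, 130.7 of ITGB4, 125.8 of ITGA6 and 78.7 of ITGB5, and between 3.39 and 8.67 TPM of each of the other 6. In the 4 day 15 libraries the ranges of ITGB1 (155.0 to 196.8 TPM), ITGB4 (133.5 to 177.1), ITGA6 (97.3 to 138.5) and ITGB5 (81.9 to 131.0) overlapped from neighbour to neighbour. A gap then separated ITGB5 from ITGA5 (12.8 to 24.5 TPM), below which neighbours overlapped again down to ITGB7 (4.83 to 8.87 TPM). ITGB1 and ITGB4 were the highest of the set in each of the 5 SW620 and SW620-TET2CD libraries. Outside the SW620-TET2CD colonies ITGB5 stood above ITGA6 (131.0 and 118 TPM), and in SW480 ITGB5 and ITGA3 led with 302.5 and 156.4 TPM. In such sums over a culture, fewer cells of a type and less RNA per cell cannot be told apart.

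**Figure D5:**
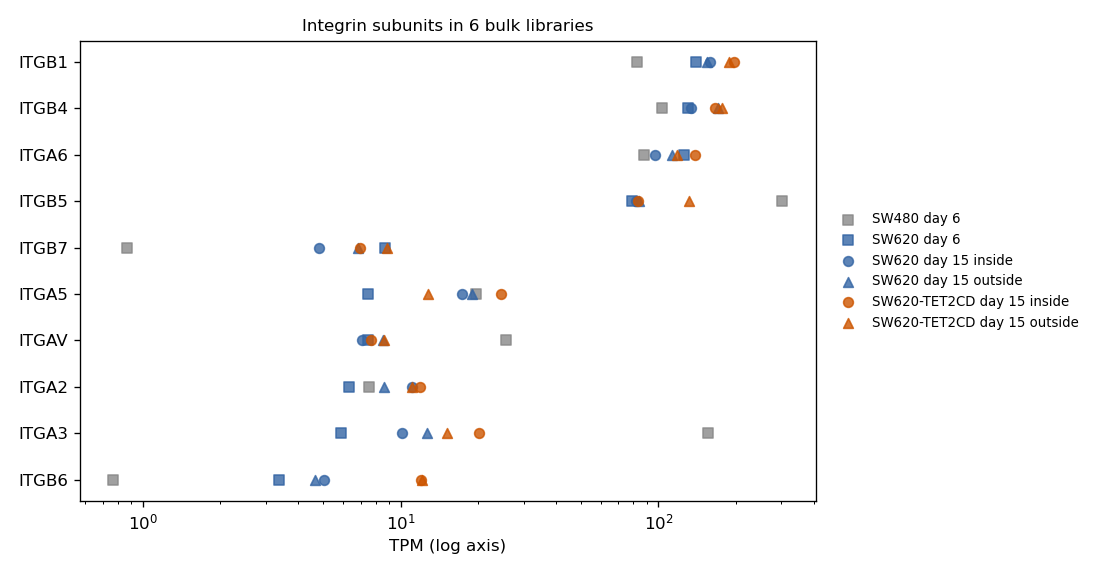
TPM of the 10 integrin subunits in the 6 bulk libraries, on a log axis, with SW480 in gray, SW620 in blue and SW620-TET2CD in orange, day 6 as squares, inside the colonies as circles and outside as triangles. SW480 (gray) lies far from the SW620 libraries for ITGA3, ITGB5, ITGAV, ITGB6 and ITGB7.

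SW480 and SW620 differed in the RNA levels of some subunits, with 1 library each and hence no test. ITGA3 was at 156.4 TPM in SW480 and 5.88 TPM in SW620, a log2 ratio of 4.52 (pseudocount of 1 TPM). ITGB7 lay on the other side, at 0.87 TPM in SW480 and 8.67 TPM in SW620, a log2 ratio of -2.37. These 2 of 10 subunits were past a log2 ratio of 2 in either direction, as were 7.96% of the 15964 genes with a mean of at least 1 TPM. With a pseudocount of 0.1 TPM ITGB6 joined them at -2.00, making 3 of 10 against 12.7% of genes. ITGB5 at 302.5 against 78.7 TPM (log2 ratio 1.93) and ITGAV at 25.6 against 7.47 TPM (1.65) were higher in SW480 and ITGB6 at 0.77 against 3.39 TPM (-1.31) was higher in SW620. The α6 and β4 chains were closer, at 87.9 against 125.8 TPM and 103.7 against 130.7 TPM.

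Cells outside the colonies were compared with those inside on day 15, over both lines. No subunit passed (0 of 10 in edgeR and in DESeq2, against 0% of the 17722 genes in edgeR). In edgeR 1 of 10, ITGB7, had an unadjusted p under 0.05, as had 1068 of the 17722 genes. ITGB7 measured 4.83 TPM inside the SW620 colonies and 6.82 TPM around them, and 6.95 and 8.87 TPM for SW620-TET2CD (log2 fold change 0.52 ± 0.20, adjusted p = 0.772). With 1 library left out, its log2 fold change ran from 0.24 to 0.80. ITGA5 went opposite ways in the lines, 17.4 TPM inside and 18.9 outside in SW620 but 24.5 inside and 12.8 outside in SW620-TET2CD. ITGB5 measured 83.3 TPM inside the SW620-TET2CD colonies and 131.0 TPM around them, whereas SW620 held 81.9 and 83.8 TPM.

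Between the lines in these 4 libraries, ITGB6 was higher in SW620-TET2CD, 1 of 10 subunits against 0.288% of all genes (of the genes called 69.9% were higher, 57.9% with upper-quartile factors and 49.1% in DESeq2). It stood at 12.0 TPM inside and 12.1 TPM outside the SW620-TET2CD colonies and at 5.04 and 4.67 TPM in SW620, with no overlap (log2 fold change 1.23 ± 0.12, adjusted p = 0.0488). The fit left 1 residual degree of freedom, so the call leaned on the spread that edgeR borrows from other genes. Without a location term the adjusted p was 0.0579. ITGA3 was also called higher in DESeq2 (log2 fold change 0.80, adjusted p = 0.0192) and with no filter on low counts (0.79, adjusted p = 0.000195). ITGB5 was at 0.51 ± 0.16 (adjusted p = 0.184) and was called higher with no filter (0.50, adjusted p = 0.0096). Without SW620-TET2CD inside, ITGB5 was at 0.83. ITGB7, lower in SW620-TET2CD in the single-cell libraries, was here at 6.95 and 8.87 TPM against 4.83 and 6.82 TPM in SW620 (log2 fold change 0.35 ± 0.20, adjusted p = 0.399). ITGB4 was at 165.2 and 177.1 TPM against 133.5 and 169.8 TPM (0.19 ± 0.12, adjusted p = 0.428). With all libraries, the bulk and single-cell directions of ITGB7 and ITGB4 were thus opposite, and the difference between the assays was not tested. With 1 bulk library left out, the bulk log2 difference ran from -0.0099 to 0.72 for ITGB7 and from 0.068 to 0.30 for ITGB4. It is not stated whether both assays drew on the same cultures.

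The time course also read differently in bulk. From day 6 to day 15 in SW620, ITGB4 went from 130.7 TPM to 133.5 inside and 169.8 outside the colonies, and ITGB7 from 8.67 TPM to 4.83 and 6.82. In the single-cell libraries the same subunits had risen 7.92-fold and 8.56-fold. ITGA5 was higher in both assays, at 7.50 TPM on day 6 and 17.4 and 18.9 TPM on day 15, as was ITGA3, at 5.88 against 10.1 and 12.7 TPM. ITGA2 went from 6.34 TPM to 11.1 and 8.61, and ITGB6 from 3.39 TPM to 5.04 and 4.67. ITGA6 was lower on day 15, at 125.8 TPM against 97.3 and 113.4, where its single-cell level had risen 2.40-fold. ITGAV was at 7.47 TPM against 7.12 and 8.54, ITGB1 at 140.1 against 159.1 and 155.0, and ITGB5 at 78.7 against 81.9 and 83.8, next to single-cell rises of 3.03-fold, 2.11-fold and 2.34-fold. The bulk values come from 1 library each with no test, day 15 was split by location while day 6 was not, and the 3′ reads of the single-cell kit sample other parts of a transcript than bulk reads. The bulk kit does not mark strand, and exons of ITGA5, ITGA6, ITGAV, ITGB1 and ITGB7 overlap a gene on the opposite strand in the GENCODE annotation (for ITGB7 the protein-coding ZNF740), so that their bulk values may hold reads of that neighbour. ITGB6 shares exon sequence with a long non-coding RNA on its own strand.

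Of the other 16 integrin genes, 6 could be tested late against early, and 5 of them rose and 1 fell, where 29.4% of all genes tested rose and 28.6% fell. ITGA1 and ITGA10, collagen receptor chains, rose by log2 values of 1.42 ± 0.24 and 2.81 ± 0.58, the latter from at most 0.73 CPM early to at most 6.37 CPM late. ITGA7, a laminin receptor chain, rose by 1.45 ± 0.26, and ITGB8, a further partner of αV, by 1.07 ± 0.18. ITGA2B, the platelet αIIb chain, rose by 2.33 ± 0.33 but stayed under 1 CPM in the 8 libraries. The gene that fell in the late-early test was ITGAE, which encodes αE. ITGAE was at 210.5, 174.7, 82.9 and 85.5 CPM in SW620 and at 199.6, 190.4, 98.4 and 73.6 CPM in SW620-TET2CD on days 6, 9, 12 and 15. Its late and early libraries did not overlap (log2 fold change -1.29 ± 0.14, adjusted p = 5.28e-05), and it was higher in mitotic cells by 0.43 ± 0.08 (adjusted p = 0.000392). The 2 alpha partners of β7 thus gave no parallel to its rise, since ITGA4 had 0 of 477788739 UMIs over the 8 libraries, which allows up to 0.00628 CPM, and at most 0.15 TPM in bulk.

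Among 22 ligand genes 14 were tested, and 9 rose, 3 fell and 2 did not pass, with a median log2 fold change of 0.53, against all-gene shares of 29.4% up and 28.6% down. All 7 laminin chains tested were among the genes that rose, a count made after their values were seen. LAMA3, a chain of the hemidesmosome's laminin, averaged 6.11 CPM early and 21.4 CPM late (log2 fold change 1.69 ± 0.37), and LAMA5 8.68 and 27.5 CPM (1.56 ± 0.19). The gene of the matrix protein TNC, a ligand of αV integrins, fell from a mean of 28.2 CPM to 7.38 CPM (log2 fold change -2.05 ± 0.34). THBS1, which encodes thrombospondin 1, fell from 9.71 to 2.81 CPM (-1.90 ± 0.36). In bulk, LAMA3 was at 32.7 TPM in SW620 on day 6 and at no more than 35.4 TPM in any library. THBS1 was at 2.59 TPM in SW620 on day 6 and reached 3.90 TPM in a day 15 library. The highest bulk value of TNC was that of SW620 on day 6, 176.3 TPM. FN1, the fibronectin that α5β1 binds, was named after its values were seen and ranged from 1.80 to 8.37 CPM without a difference past the threshold (log2 fold change -0.15 ± 0.40, adjusted p = 0.768).

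On the inner side of the membrane, of 29 genes of talins, kindlins, kinases and adaptors, 8 rose, 7 fell and 14 did not pass, with a median log2 fold change of -0.04. These counts were close to the shares over all genes (29.4% up and 28.6% down). TNS1, a tensin that binds β tails, rose by 5.03 ± 0.38 from an early mean of 0.09 CPM to a late mean of 3.08 CPM, and the kinase PTK2B rose by 1.59 ± 0.22. ITGB1BP1, which binds the β1 tail and holds the receptor inactive, fell from a mean of 91.4 CPM to 36.7 CPM (log2 fold change -1.42 ± 0.16), and the talin gene TLN2 from 1.78 to 0.83 CPM (-1.25 ± 0.27). Of 8 hemidesmosome and tetraspanin partners 3 rose, 2 fell and 3 did not pass, again near the shares of 29.4% and 28.6% over all genes. PLEC, the plectin that links β4 to keratin filaments, rose from a mean of 75.7 CPM to 182.8 CPM (1.17 ± 0.23), and the tetraspanin CD82 by 0.89 ± 0.15. BSG and SLC3A2, which join β1 at the membrane, fell from means of 507.9 and 225.6 CPM to 272.6 and 124.0 CPM. Bulk values differed for some of these genes. SLC3A2 was at 180.6 TPM in SW620 on day 6 and reached 567.6 TPM in a day 15 library. CD82 was highest in SW620 on day 6, at 85.3 TPM. PLEC went from 156.5 TPM there to at most 203.3 TPM on day 15. BSG was at 554.1 TPM in SW620 on day 6, and its highest bulk value, 560.0 TPM, was that of SW480. Neither value tells how BSG changed by day 15.

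The genes whose log2 CPM followed ITGA5, ITGB6 and ITGB7 most closely over the 8 libraries were sought among 8717 genes with a mean of at least 8 CPM. BBC3 (Pearson r = 0.994), ERRFI1 (0.992) and CACNA2D4 (0.992) lay closest to ITGA5. CCDC186 (0.998), EVI5 (0.997) and KIAA2026 (0.997) lay closest to ITGB6, and CD68 (0.991), NME3 (0.990) and FHL3 (0.989) closest to ITGB7. These libraries share days and lines, so that high values were common, with 1054, 1509 and 390 genes above 0.9 for the 3 subunits.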

How the data were processed

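The authors deposited, for each of the 8 single-cell libraries (10x Genomics 3′ chemistry), raw UMI counts per gene and barcode from Cell Ranger 4.0 against GRCh38. For each of the 6 bulk libraries (TruSeq) the authors deposited RSEM expected counts, with Bowtie as the aligner, and TPM values. The submitters' notes name mm10 for the bulk data, although the gene identifiers are human, so no build is given here for those tables.

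The study's limits on cells were applied (200 to 4500 genes detected, 1000 to 20000 UMIs, a mitochondrial share of no more than 10%), and the counts of the cells left were summed per library. Doublets were not called. Levels in CPM and the ratios between the lines on each day were not scaled by the TMM factors, which the fits used. Tests used edgeR 4.0.16 in R 4.3.3 (two-sided quasi-likelihood F test, TMM factors, genes filtered by filterByExpr) over all genes that passed the filter, with Benjamini-Hochberg adjustment and a threshold of 0.05. The late-early test had the line as a block, the line test had the day, the mitotic test had the library and both bulk tests had the other factor. Bulk expected counts were rounded to whole numbers. For the mitotic test, cells were thinned to 2000 UMIs, and the 12 mitotic genes were left out. Since each condition has 1 library, days stand in for replicates, and p-values measure the spread between days and lines, which may be technical. For each gene, edgeR draws this spread toward that of the other genes tested. Positions come from GENCODE on GRCh38. The fits were tested on simulated data with 200 genes changed. The late-early test of the real data called 9587, so the shares recovered may not carry over to it. At a true log2 change of 1, the late-early test recovered 83.5% of them, the line test 91.5% and the mitotic test 95.5%. The late-early test in cells without mitotic UMIs recovered 75%, and the bulk location and line tests 59% and 58%. Unchanged genes that were called numbered 3 in the late-early test, 6 in the line test and 10 in the mitotic test. In cells without mitotic UMIs they numbered 8, and in the bulk location and line tests 11 and 4. The test of the difference between the lines recovered 3.5%, and 69% at a log2 change of 2.

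Named genes are the 10 subunits, the other integrin genes with at least 1 CPM on average or 1 TPM at most, up to 4 genes per list with the largest late-early change among those called and changed alike in both lines, and the 3 genes most like each of the 3 subunits with the largest late rise. Members and lists were chosen with earlier results of these data known. Alternatives were DESeq2 1.42.0, upper-quartile factors, no filter on low counts, no block, other limits on cells, each line alone, other mitotic cutoffs, a depth of 1000 UMIs, and each library left out in turn.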

Additional observations from a re-analysis of the deposited data

How the results depend on the processing

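The rise late in culture held for 10 of 10 subunits, in all cells and in cells without mitotic UMIs, under each alternative over both lines. Between 4 and 6 subunits were lower in mitotic cells when a library was left out, and the call of ITGA3 was lost without SW620-TET2CD day 15. The lower levels in SW620-TET2CD were called for 2 subunits, for 4 with DESeq2, with no filter on low counts, with every barcode, with no upper limits or with a mitochondrial limit of 20% (ITGA5 and ITGA6 being added in each), for 0 without the matched day as a block, and for 1 to 3 when a library was left out. Between the lines in bulk, 1 subunit was called, 2 with DESeq2, 3 with no filter, 0 without the block, and 0 to 5 when a library was left out (0 without either SW620 library, where ITGB6 had adjusted p = 0.729 and 0.649). In those bulk fits the block was dropped and the lone library was assumed to vary like the others. Over all genes the bulk line test called 73, 0 without either SW620 library, 4191 without SW620-TET2CD inside, 2950 without SW620-TET2CD outside, 709 with DESeq2 and 2239 with no filter, and the bulk location test 0, 21 and 472. The single-cell line test called 696, 1489 with no filter and 46 without the day, and the difference between the lines 0, or 15 with no filter.

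Differences not called with all libraries changed sign. Leaving out a library took the line difference (log2) from -0.14 to 0.0015 for ITGA2, from -0.12 to 0.0648 for ITGB5 and from -0.0028 to 0.40 for ITGB6. It took the difference of the late-early change between the lines from -0.10 to 0.68 for ITGA2, from -0.93 to 0.37 for ITGA3, from -0.44 to 0.77 for ITGA5, from -0.53 to 0.45 for ITGA6, from -0.75 to 0.18 for ITGAV, from -0.49 to 0.13 for ITGB1, from -1.10 to 0.17 for ITGB4 and from -0.71 to 0.60 for ITGB6. With every barcode this difference was -0.11 for ITGA5 and -0.0829 for ITGA6, with no upper limits -0.00497 and -0.0166, and with a mitochondrial limit of 20% -0.0652 for ITGA6. Outside against inside, it ranged from -0.68 to 0.39 for ITGA3, from -0.29 to 0.19 for ITGA6, from -0.11 to 0.11 for ITGAV (-0.00822 with no filter), from -0.24 to 0.0757 for ITGB1, from -0.0254 to 0.27 for ITGB4, from -0.0304 to 0.76 for ITGB5 and from -0.78 to 0.69 for ITGB6. The bulk line difference ranged from -0.12 to 0.30 for ITGA2, from -0.77 to 0.44 for ITGA5 and from -0.0099 to 0.72 for ITGB7. Both ends for ITGA5 were called, -0.77 without SW620-TET2CD inside (adjusted p = 6.87e-05) and 0.44 without SW620-TET2CD outside (adjusted p = 0.00697), in the fits that called 4191 and 2950 genes. Of the differences called, that of ITGAV in mitotic cells changed sign, to 0.33 with cells thinned to 1000 UMIs. The cause of these changes was not tested. The labels give no replicate numbers to pair libraries by, though that of bulk SW620 day 6 ends in a number that is not explained. The blocks were the day, line, library or location.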
